A study of Rattus norvegicus with 2 samples.

Results

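The genes of the motile cilium axoneme were followed through ciliated and other cells of the rat lung, in a control library and in a library made after a gas explosion. They were taken by name: every symbol of the deposited gene list that begins with Dnah, Dnai, Cfap, Rsph or Tekt and goes on with a digit, which gave 64 members of 42172 listed genes. By their known place in the cilium, 7 members belong to the outer dynein arm, 15 to the inner dynein arm and its attachments, 11 to the radial spoke and its base, 6 to the central apparatus and 12 to the lumen of the doublet microtubules. A further 2 are dynein assembly factors and 11 are grouped as other.

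A motile cilium is built on outer doublet microtubules around a central pair. Dynein arms, large motors made of heavy, intermediate and light chains, stand on each doublet and slide it along its neighbour. Radial spokes carry signals between the central apparatus and the arms, and tektins and other inner proteins stiffen the doublets from inside their lumen. In the airway such cilia stand on ciliated cells and sweep mucus out of the lung, and inherited loss of many of these genes causes primary ciliary dyskinesia.

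The study profiled lung cells of rats exposed to a gas explosion and of unexposed control rats with droplet-based single-cell RNA sequencing, 1 library per group. Both groups were kept free of specific pathogens, and both lungs were digested with the same enzymes, freed of red cells and dead cells and counted from the 3' ends of transcripts. The labels give no strain, age, time after the explosion or number of animals per library. With 1 library per group no test was run, differences have no replicate check, and all intervals in parentheses are 95% intervals of counting error only.

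The control library held 139486248 unique molecular identifiers (UMIs, 1 per captured transcript) in 21117 barcodes, and 19231 cells passed the filters, at a median depth of 4677 UMIs. The explosion library held 9017416 UMIs in 12642 barcodes, and 11845 cells passed, at a median depth of 532 UMIs. The libraries shared 85 barcodes, 69 of them among kept cells. Clustering without the members and without the other cilium genes listed here gave 29 clusters, and 1 of them carried 11 of the 11 ciliated cell markers found in the files, among them Foxj1, the master regulator of motile ciliogenesis, and Tppp3. It held 1024 control cells, or 5.32% of the kept cells (5.01 to 5.65), and 280 explosion cells, or 2.36% (2.10 to 2.65). These are called ciliated-like below. Their median depth was 4792.5 UMIs in the control and 830 in the explosion library.

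Promoters of members were read from a RefSeq table of assembly GRCr8, which is not the build of the counts, to see whether they carry the recognition sequences of known cilium regulators. The search covered 250 bases before to 50 bases after the start, for GTTGCC, a core part of the X-box bound by RFX factors, and for GTAAACA, a forkhead motif of the kind Foxj1 belongs to, each on both strands. The letters of these motifs share no overlap in the stretches shown. GTTGCC was found in 18 of 54 member promoters in the table, or 33.3%, against 12.2% of all 33469 promoters and 44.3% of 122 promoters of other motile cilium genes. GTAAACA was found in 3 of 54, or 5.56%, against 3.78% of all. Within the last 100 bases before the start lay 14 of the 25 GTTGCC matches of members, or 56.0%, against 37.8% of the 4526 matches of all promoters. The stretches shown run 5′ to 3′ on the gene's own strand over those 100 bases, with GTTGCC or its reverse complement GGCAAC in capitals. They were chosen after the ratios were seen, to show the same match in members with ratios above 1 (Dnah2, Cfap46 and Dnai2) and below 1 (Tekt1, whose interval holds 1, and Cfap161) between the libraries.
Dnah2, GRCr8 chr10:54766027-54766126, minus strand: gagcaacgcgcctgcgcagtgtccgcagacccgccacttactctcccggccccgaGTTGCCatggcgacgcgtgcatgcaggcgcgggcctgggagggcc
Cfap46, GRCr8 chr1:203912387-203912486, minus strand: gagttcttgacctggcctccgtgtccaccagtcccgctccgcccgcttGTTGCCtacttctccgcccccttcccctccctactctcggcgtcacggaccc
Dnai2, GRCr8 chr10:100258922-100259021, plus strand: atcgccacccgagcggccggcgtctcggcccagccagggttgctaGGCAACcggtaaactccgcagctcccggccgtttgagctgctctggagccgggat
Tekt1, GRCr8 chr10:57479122-57479221, minus strand: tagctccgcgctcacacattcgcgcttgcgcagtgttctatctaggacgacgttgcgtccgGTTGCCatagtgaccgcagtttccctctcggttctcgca
Cfap161, GRCr8 chr1:147177822-147177921, minus strand: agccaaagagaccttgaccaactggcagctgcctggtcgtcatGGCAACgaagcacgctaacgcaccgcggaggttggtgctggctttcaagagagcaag

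The match began 45 bases before the start in Dnah2, 52 in Cfap46, 55 in Dnai2, 39 in Tekt1 and 57 in Cfap161. A match is a description of the letters and does not show that a factor binds there.

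Axoneme genes were concentrated in the ciliated-like cells of both libraries. Members made up 0.961% of the UMIs of control ciliated-like cells (0.956 to 0.967) and 2.19% of those of explosion ciliated-like cells (2.14 to 2.25). In other classes that held 50 or more cells of each library the share lay between 0.0282% in control secretory-like cells and 0.0691% in explosion B-like cells. Among kept control cells, ciliated-like cells held 71.8% of member UMIs with 9.61% of all UMIs. Among kept explosion cells they held 58.6% of member UMIs with 3.57% of all UMIs. Shares of the UMIs of single members below are likewise over kept cells. Over all barcodes of a library the members' share was 0.124% and 0.132%, beside a ciliated-like share of kept cells that was lower in the explosion library.

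Within a library, levels are given as CPM, the UMIs of a gene in a class scaled to 1000000 UMIs of that class. CPM was not divided by length, since counting from the 3' end was taken to give 1 tag per transcript. Whether the counts depend on gene length was not tested. Of 55 members with a mean of at least 15 CPM over ciliated-like and other control cells, 54 stood at least 2-fold above the other cells, where 18% of 6638 genes did, and 47 at least 10-fold, where 6.37% did. In the explosion library 56 of 57 stood at least 2-fold above, where 20.7% of 9326 genes did, and 50 at least 10-fold, where 6.21% did. The median member was 79.1-fold above the other cells in control and 75.1-fold in the explosion library. Cfap97 was under 2-fold in each.

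**Figure D1:**
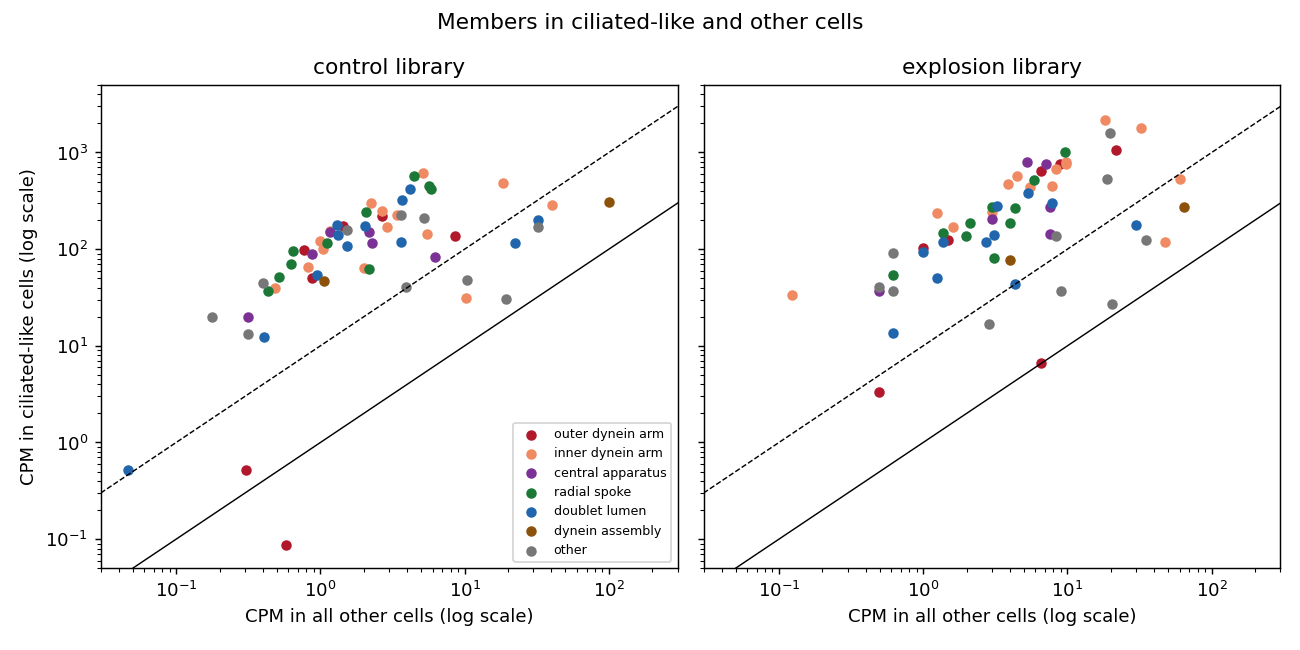
Each point is a member, coloured by its place in the cilium, with its CPM in all other kept cells on the x axis and its CPM in ciliated-like cells on the y axis (both log scales), control on the left and explosion on the right. The solid line marks equal levels and the dashed line 10-fold, members at 0 on an axis are not drawn, and most points lie above the dashed line, with 47 of 55 members read in control and 50 of 57 in the explosion library at least 10-fold above.

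Some members also had clear levels outside ciliated-like cells. Cfap298, a dynein assembly factor, stood at 156 CPM in control macrophage-like cells (153 to 160) and at 130 CPM in explosion ones (115 to 146), beside 310 and 275 CPM in ciliated-like cells. Cfap43, needed for the tether of the inner arms, stood at 70.8 CPM in control macrophage-like cells (68.6 to 73.1) and at 185 CPM in explosion ones (168 to 204), a ratio of 2.61 (2.35 to 2.90). Its level in control secretory-like cells was 3.61 CPM. In cycling-like cells Cfap43 stood at 76.7 CPM in control (64.4 to 90.7) and 56.7 CPM in the explosion library (28.3 to 101), so control cycling-like cells were level with macrophage-like ones within counting error. Most control macrophage-like cells lay in clusters 2, 3 and 8 (3544, 3526 and 1437 cells) and most explosion ones in cluster 18 (1739 cells), so the ratio compares different clusters.

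Dnah14, an axonemal dynein heavy chain, stood at 24.2 CPM in control secretory-like cells (22.7 to 25.8) and at 186 CPM in explosion ones (160 to 214), a ratio of 7.67 (6.52 to 8.99). In explosion ciliated-like cells it stood at 117 CPM. The ratio of Dnah14 lay above 1 in each of the 7 classes read outside ciliated-like cells, from 2.66 in NK-like (1.25 to 5.73) to 15.3 in mesothelial-like cells (4.94 to 62.9). The mesothelial-like ratio rests on 4 control and 16 explosion UMIs. Over all cells outside the ciliated-like class the median gene was itself 2.08-fold higher in the explosion library. There 52.1% of 15594 genes were at least 2-fold higher. The intervals in NK-like cells and in T-like cells (ratio 3.27, 1.79 to 5.89) hold the fold of the median gene. Cluster 5 held most secretory-like cells of each library (1922 and 703), and cluster 1 a further 1048 control and 20 explosion cells. Tekt2, a tektin, went the other way in secretory-like cells, with 54.9 CPM in control (52.6 to 57.3) and 20.0 CPM in the explosion library (12.2 to 30.8), and it reached 175 CPM in control type 2 alveolar-like cells (136 to 222, 68 UMIs). These members held only 24.4% (Dnah14) and 35.2% (Tekt2) of their control UMIs in ciliated-like cells.

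Cfap57, needed to assemble inner arm dyneins, had a second site in control mesothelial-like cells, the lining of the lung surface, at 37.4 CPM (31.3 to 44.4) against 63.5 CPM in ciliated-like cells. In explosion mesothelial-like cells it stood at 5.47 CPM (1.77 to 12.8, 5 UMIs). These cells too lay in different clusters, cluster 10 for control (1039 cells) and cluster 16 for the explosion library (1017 cells). Cfap20, Cfap36, Cfap97 and Cfap410 were spread over many classes, with 39.9%, 35.9%, 14.3% and 32.9% of their control UMIs in ciliated-like cells. Dnah17, a heavy chain known from sperm flagella, had 1 UMI in control and 2 in explosion ciliated-like cells and was found mainly elsewhere, on a locus that overlaps Pgs1 in RefSeq, as Cfap97 does Snx25. Cfap97d1 had no UMI in the ciliated-like cells of either library, and Tekt5 and Rsph6a had none in those of the explosion library, which allows up to 0.262 CPM in control and 10.1 CPM in the explosion library.

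The comparison of the libraries asked how axoneme transcripts of ciliated-like cells differed after the explosion. Dynein heavy chains stood at higher CPM in the explosion library, while tektins and most other proteins of the doublet lumen were level or lower. The read was limited to 55 members with a mean of at least 30 CPM over the libraries, which leaves out 9 (Cfap221, Tekt3, Tekt5, Cfap157, Cfap97, Cfap97d1, Dnah8, Dnah17 and Rsph6a). Of these, 30 were at least 2-fold higher in the explosion library, where 49.3% of 5139 genes were, and 3 at least 2-fold lower, where 9.13% were. The median log2 ratio was 1.11 over members and 0.98 over all genes, so the median gene itself stood 1.98-fold higher in the explosion library. Relative to that median, 7 members were at least 2-fold higher (13.5% of all genes) and 15 at least 2-fold lower (24.4% of all genes).

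The ciliated-like cells of the libraries also differed in what else they carried. Scgb1a1, the secretory protein of club cells, took 36.4% of control and 16.7% of explosion ciliated-like UMIs, and Rn45s, the ribosomal RNA precursor, 0.00882% and 0.202%. In control, 385 ciliated-like cells with over 20% Scgb1a1 had a median of 19233 UMIs and held 78.5% of the UMIs of the class, with members at 0.625% of UMIs. The other 639 control cells had a median of 2797 UMIs, with members at 2.19%. In the explosion library 79 cells with over 20% Scgb1a1 held 48.5% of the UMIs at a members' share of 1.11%, and 201 cells below it had 3.22%. The other 9 secretory markers summed to 50107 CPM in the control cells over 20%, beside 49630 CPM in control secretory-like cells and 8784 CPM in the control cells below it. In the explosion library they summed to 7852 CPM over 20%, 2854 CPM below it and 9985 CPM in secretory-like cells. All 9 had a UMI in the control cells over 20%, and 8 of 9 in each of the other ciliated-like sets. Their part in the ratios was not tested, and the main ratios are therefore also given in cells with at most 20% Scgb1a1, a limit chosen after the data were seen. There 14 of 58 members read were at least 2-fold higher (27.9% of 6171 genes) and 8 lower (15.6%), with medians of 0.35 over members and 0.43 over all genes.

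**Figure D2:**
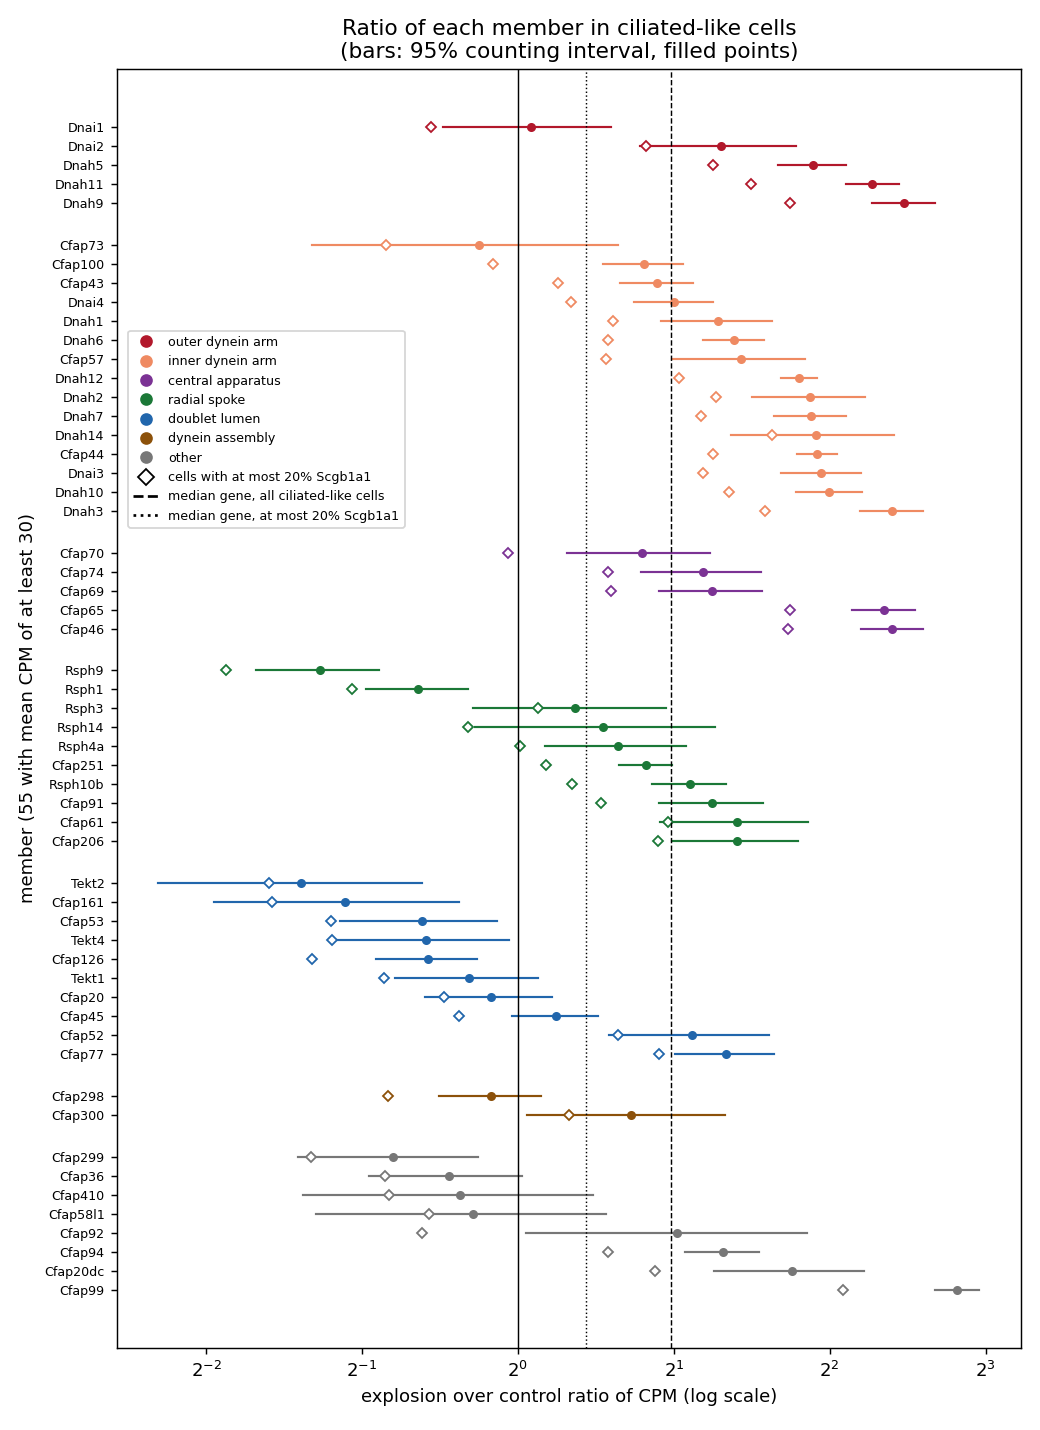
The explosion over control ratio of CPM in ciliated-like cells (x axis, log scale) is drawn for the 55 members with a mean of at least 30 CPM, grouped and coloured by place in the cilium, with 95% counting intervals as bars, open diamonds for cells with at most 20% Scgb1a1, and vertical lines for no difference and for the median gene. The 11 dynein heavy chains lie to the right of the line of no difference in both sets of cells, and Tekt2, Cfap161 and Rsph9 lie furthest to the left.

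The heavy chains of the outer arm, which drives beat frequency, were 3.71-fold to 5.57-fold higher in the explosion library. Dnah9, an outer arm heavy chain of airway cilia, stood at 138 CPM in control and 768 CPM in explosion ciliated-like cells, 5.57-fold higher (4.83 to 6.40). Dnah11, whose locus overlaps Cdca7l in RefSeq, stood at 222 and 1073 CPM, 4.84-fold higher (4.29 to 5.43). Dnah5, whose loss is a main cause of primary ciliary dyskinesia, stood at 174 and 647 CPM, 3.71-fold higher (3.18 to 4.30). In cells with at most 20% Scgb1a1 the ratios were 3.35 for Dnah9 (2.84 to 3.94), 2.82 for Dnah11 (2.44 to 3.24) and 2.38 for Dnah5 (2.00 to 2.83). All 3 thus stayed above 1 and above the median gene there.

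The intermediate chains of the same arm had lower ratios than its heavy chains. Dnai2 stood at 50.3 and 124 CPM, 2.47-fold higher (1.72 to 3.44). Dnai1, its partner in the outer arm, stood at 97.9 and 104 CPM, a ratio of 1.06 (0.718 to 1.52) that holds 1. With at most 20% Scgb1a1 the ratio of Dnai1 was 0.680 (0.427 to 1.03) and that of Dnai2 1.77 (1.18 to 2.57).

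Inner arm heavy chains were higher without exception among the 8 read, by 2.43-fold for Dnah1 (1.89 to 3.09) to 5.28-fold for Dnah3 (4.58 to 6.07). Dnah3 stood at 145 and 765 CPM, and Dnah10, a heavy chain of the inner arm that holds a pair of them, at 171 and 681 CPM, 3.99-fold higher (3.44 to 4.61). Dnah12, the member with the highest mean CPM, stood at 615 and 2147 CPM, 3.49-fold higher (3.22 to 3.79). Dnah6 stood at 302 and 788 CPM, 2.61-fold higher (2.28 to 2.98). Over the arms together 11 of 11 heavy chains read were at least 2-fold higher, where 49.3% of all genes were, with a median log2 ratio of 1.90 and folds of 2.45 to 5.58 with 0.5 counts added. In cells with at most 20% Scgb1a1, 9 of 11 were (27.9% of all genes), all 11 intervals lay above 1, and the median was 1.28. After thinning to 500 UMIs 5 of 11 were (32.6% of all genes), and relative to the median gene 4 of 11 (Dnah3, Dnah9, Dnah10 and Dnah11; 13.5% of all genes).

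Heavy chains were also higher in the explosion library outside ciliated-like cells, at much lower levels. Over all other kept cells 8 of the 11 heavy chains were at least 2-fold higher, where 52.1% of 15594 genes with at least 50 UMIs were, and none lower, where 5.99% were, with a median fold of 3.51 against 2.08 for all genes. Dnah11 was 8.18-fold higher there (6.74 to 9.90), and in macrophage-like cells it stood at 1.65 CPM in control and 38.9 CPM in the explosion library. The macrophage-like cells of the libraries lay mostly in different clusters, and reads of Dnah11 may be shared with Cdca7l. Over all other kept cells Dnah5 was 4.55-fold higher (3.27 to 6.25), Dnah12 3.50-fold (2.90 to 4.21), and Dnah9 at 1.04 (0.809 to 1.33). A higher level in the explosion library was thus seen outside ciliated-like cells for most heavy chains, and for Dnah9 only in some classes. The ratio of Dnah9 was 4.58 in secretory-like (1.76 to 10.0, 7 explosion UMIs) and 4.52 in mesothelial-like cells (1.87 to 11.1, 13 explosion UMIs). It was 2.06 in monocyte-like (0.849 to 5.17) and 0.701 in macrophage-like cells (0.436 to 1.07). Control macrophage-like cells held 83.1% of its control UMIs outside ciliated-like cells. The mix of classes among the other cells differed between the libraries.

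The proteins that tie the inner arm to the doublet ranged from above the median gene to a ratio below 1. Cfap44, which with Cfap43 forms the tether of an inner arm, stood at 479 and 1811 CPM, 3.78-fold higher (3.45 to 4.13), while Cfap43 stood at 287 and 533 CPM, 1.86-fold higher (1.57 to 2.18) and just below the median gene. Cfap100 was 1.75-fold higher (1.46 to 2.09). Cfap73, which works with Cfap100 at the foot of inner arms, stood at 39.9 and 33.5 CPM on 457 and 10 UMIs, a ratio of 0.842 (0.401 to 1.56). RefSeq places Cfap73 over a part of the gene Ddx54, so its reads may be shared. Cfap44 was 2.38-fold higher (2.14 to 2.64) with at most 20% Scgb1a1. Cfap43, Cfap100 and Cfap73 had intervals that hold 1 there, at 1.19 (0.980 to 1.44), 0.896 (0.718 to 1.11) and 0.555 (0.220 to 1.17).

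In the central apparatus, which sets the beat pattern, 4 of 5 members read were at least 2-fold higher (49.3% of all genes). With at most 20% Scgb1a1 2 of 6 were (27.9% of all genes), and after thinning 2 of 6 (32.6%). Cfap46 stood at 150 and 792 CPM, 5.29-fold higher (4.59 to 6.06), and Cfap65, which overlaps LOC134480387 in RefSeq, at 150 and 761 CPM, 5.09-fold higher (4.41 to 5.85). Over all other kept cells Cfap46 was 4.46-fold higher (3.07 to 6.37) and Cfap65 3.23-fold (2.38 to 4.33). Cfap70 had the lowest ratio of the group, at 83.2 and 144 CPM, 1.73-fold higher (1.25 to 2.35). Its ratio was 0.958 (0.635 to 1.39) with at most 20% Scgb1a1, and its log2 ratio of 0.81 became -0.17 relative to the median gene, whereas Cfap46 and Cfap65 stayed at 3.32 (2.81 to 3.90) and 3.35 (2.84 to 3.93) in the former.

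Radial spoke members lay on either side of a ratio of 1. Rsph9, a spoke head protein mutated in primary ciliary dyskinesia, stood at 453 and 188 CPM, 2.41-fold lower in the explosion library (1.86 to 3.20). Rsph1, of the same head, stood at 418 and 268 CPM, 1.56-fold lower (1.25 to 1.97), on a locus that RefSeq shows overlapping Slc37a1. Rsph4a, a further head protein, stood at 94.6 and 148 CPM, 1.56-fold higher (1.13 to 2.11). Relative to the median gene all 3 spoke head proteins lay lower, at log2 values of -2.24 for Rsph9, -1.61 for Rsph1 and -0.33 for Rsph4a. With at most 20% Scgb1a1 Rsph4a was at 1.01 (0.692 to 1.43).

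At the spoke base, Cfap206 stood at 70.8 and 188 CPM, 2.65-fold higher (1.99 to 3.48), and Cfap251, a protein of the calmodulin and spoke associated complex, at 570 and 1006 CPM, 1.77-fold higher (1.57 to 1.98). Rsph10b, named for the spoke, stood at 242 and 520 CPM, 2.15-fold higher (1.82 to 2.53). The 10 spoke members read had a median log2 ratio of 0.74, with 4 at least 2-fold higher (49.3% of all genes), 1 lower (9.13%) and 5 between. Relative to the median gene Cfap251 lay at -0.16. Its ratio was 1.14 (0.988 to 1.30) with at most 20% Scgb1a1, an interval that holds 1. Cfap206 was 1.87-fold higher there (1.33 to 2.57) and Rsph10b 1.27-fold (1.04 to 1.54).

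Members of the doublet lumen were the lowest group, with a median log2 ratio of -0.43 over 10 read, 2 at least 2-fold higher (49.3% of all genes), 2 lower (9.13%) and 6 between. Choosing the cells by 3 UMIs of 2 ciliated markers instead of by cluster turned the lumen median to 0.36, still below 1.01 for all genes. It left no member at least 2-fold lower, with Tekt2 at -0.42 and Rsph9 at -0.46. That choice took unlike cells from the libraries. Of 1550 control cells chosen, 63.7% lay in the ciliated-like cluster, 329 were macrophage-like and 136 secretory-like. Of 189 explosion cells chosen, 96.3% lay in the ciliated-like cluster. Tekt2 stood at 115 and 43.6 CPM, 2.63-fold lower (1.53 to 4.95) on 13 explosion UMIs. Tekt1 stood at 175 and 141 CPM, 1.24-fold lower (0.915 to 1.73), and Tekt4 at 142 and 93.9 CPM, 1.51-fold lower (1.04 to 2.28). Tektins are filament proteins along the inner wall of the doublet, and the counting interval of Tekt1 holds 1. With at most 20% Scgb1a1 the intervals of all 3 lay below 1, at 3.03-fold lower for Tekt2 (1.63 to 6.35), 1.82-fold for Tekt1 (1.26 to 2.71) and 2.28-fold for Tekt4 (1.47 to 3.76).

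Cfap161, a protein of the doublet lumen, stood at 108 and 50.3 CPM, 2.15-fold lower (1.30 to 3.86) on 15 explosion UMIs. Cfap126 stood at 415 and 278 CPM, 1.49-fold lower (1.20 to 1.88), and Cfap53 at 180 and 117 CPM, 1.53-fold lower (1.10 to 2.203). Cfap77 went the other way, at 120 and 302 CPM, 2.52-fold higher (2.01 to 3.12), as did Cfap52, at 54.1 and 117 CPM. In cells with at most 20% Scgb1a1 the lumen median was -0.998, with no member at least 2-fold higher (27.9% of all genes) and 5 of 10 lower (15.6%). Cfap77 was 1.87-fold higher there (1.45 to 2.39).

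Heavy chains had a higher median ratio than lumen members in each set of cells compared, and also outside ciliated-like cells. Over all other kept cells the median fold was 3.51 for heavy chains and 1.01 for 10 lumen members, beside 2.08 for all genes. The order is therefore not particular to ciliated-like cells. The heavy chain median minus the lumen median was 2.33 on the log2 scale in all ciliated-like cells, 2.28 with at most 20% Scgb1a1 and 1.56 with every cell thinned to 500 UMIs. After thinning, the medians were 1.00 for heavy chains, -0.56 for the lumen, 0.48 for members and 0.55 for all genes, with 14 of 57 members at least 2-fold higher (32.6% of 5749 genes) and 7 lower (11.5%). Scaling to genes other than Scgb1a1, ribosomal protein, mitochondrial and Rn45s genes gave 15 members higher (31.7% of all genes) and 8 lower (15.4%).

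The 2 assembly factors, which act in the cytoplasm to fold and load dyneins, were close to level. Cfap298 stood at 310 and 275 CPM, a ratio of 0.888 (0.705 to 1.11), and Cfap300 at 46.7 and 77.1 CPM, a ratio of 1.65 (1.04 to 2.51) that lay below the median gene at -0.23. Of the 8 other members read, 4 were at least 2-fold higher and none lower, a share near that of all genes (49.3%). With at most 20% Scgb1a1 1 of 10 was higher (27.9% of all genes) and 1 lower (15.6%). Cfap99 had the highest ratio of all members read, at 224 and 1576 CPM, 7.05-fold higher (6.38 to 7.78) and 4.25-fold with at most 20% Scgb1a1 (3.77 to 4.77). Over all other kept cells it was 5.48-fold higher (4.53 to 6.60). RefSeq places Cfap99 over a part of the gene Rnf4, and reads of the pair may be shared.

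Cfap94, which RefSeq lists as Dnai7, stood at 212 and 527 CPM, 2.49-fold higher (2.10 to 2.92), and its locus overlaps Irag2 and Etfrf1. Cfap299 had the lowest ratio of the other members, at 158 and 90.6 CPM, 1.75-fold lower (1.20 to 2.66). In all, 16 of the 64 members overlap another protein-coding gene in RefSeq, and no source used here states whether strand was used in counting. Dnah14 and Cfap20dc, read at 3.76-fold (2.58 to 5.33) and 3.38-fold higher (2.39 to 4.65), are among the members with a low share in ciliated-like cells, at 24.4% and 52.5% of control UMIs.

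The makeup of axoneme transcripts in ciliated-like cells differed between the libraries. Dynein heavy chains made up 22.0% of control member UMIs (21.8 to 22.3) and 36.7% of explosion member UMIs (35.5 to 37.9). The doublet lumen made up 19.2% (18.9 to 19.4) and 7.81% (7.17 to 8.49), and the radial spoke and its base 22.0% (21.8 to 22.2) and 13.1% (12.2 to 13.9). Genes that are no member do not enter this share, but members that are also read in other classes do. In secretory-like cells lumen members summed to 113 CPM in control and 126 CPM in the explosion library, and heavy chains to 42.6 and 267 CPM. Whether RNA of such cells alters the makeup was not tested. In ciliated-like cells with at most 20% Scgb1a1 heavy chains took 23.5% and 36.5% and the lumen 18.0% and 7.87%.

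**Figure D3:**
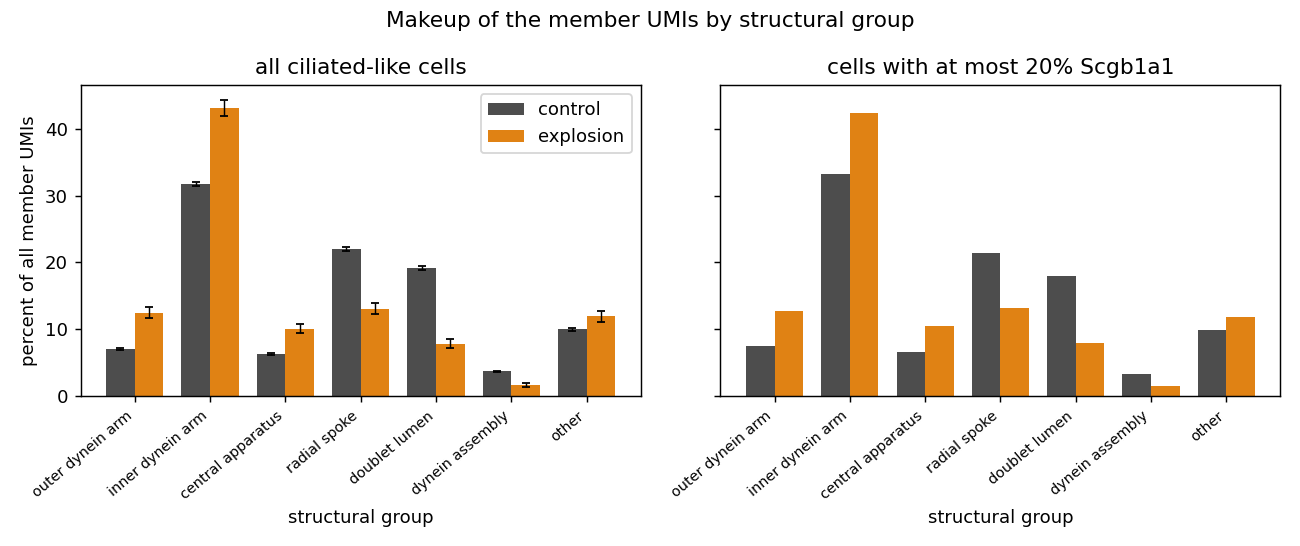
Bars give the percent of all member UMIs of ciliated-like cells (y axis) that fell to each place in the cilium (x axis), grey for control and orange for explosion, with all ciliated-like cells on the left (bars of error are 95% counting intervals) and cells with at most 20% Scgb1a1 on the right. Outer and inner arm bars are taller in the explosion library and lumen and spoke bars shorter, in both panels.

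Single ciliated-like cells carried many members at once. Without thinning, the median control cell had a UMI of 34.5 different members and the median explosion cell of 15, at the depths given above. With each cell thinned to 500 UMIs, the median was 7 members in 1024 control cells (quartiles 3 and 11) and 10 in 226 explosion cells (quartiles 6 and 13), with 54 shallower explosion cells left out. At that depth the median secretory-like, macrophage-like and T-like cell carried 0 in each library. In cells with at most 20% Scgb1a1 the thinned medians were 10 members in 639 control cells and 12 in 147 explosion cells, and in cells above it 3 and 5.

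**Figure D4:**
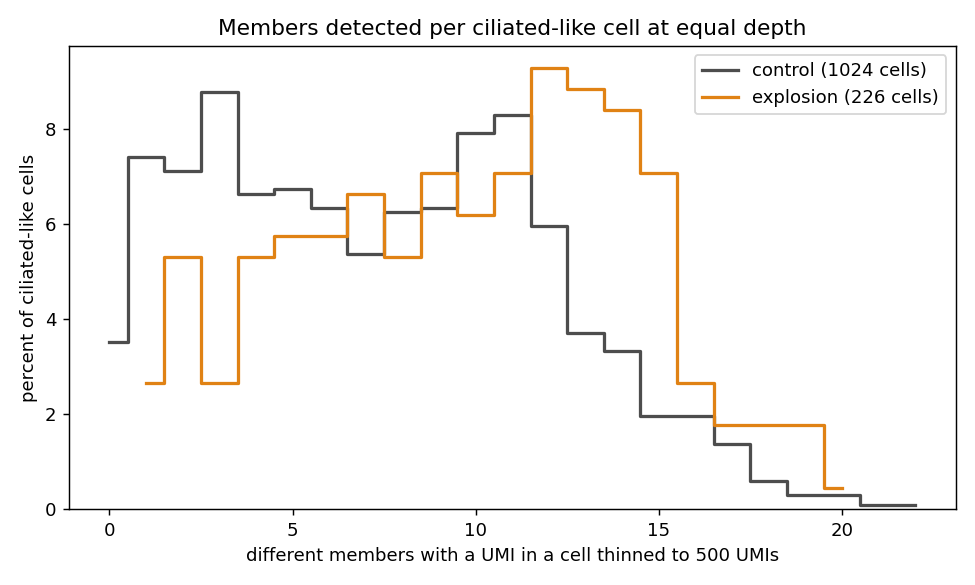
The percent of ciliated-like cells (y axis) is drawn by the number of different members with a UMI after thinning each cell to 500 UMIs (x axis), for 1024 control cells in grey and 226 explosion cells in orange. The explosion line lies further to the right, with medians of 10 and 7, and the control line has more cells with few members.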

How the data were processed

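For each barcode the authors deposited raw UMI counts of every gene, as whole numbers without normalization. Cellranger 7.1.0 wrote the matrices, per the file headers. Among tools the submitters' processing notes list Cell Ranger 6.1.1 and bcl2fastq 2.20, and as builds rn6 and mRatBN7.2. No source used here gives the annotation, the role of a build or the use of strand. A cell needed 200 genes and no more than 25% mitochondrial UMIs, which left out 21 and 12 control and 192 and 8 explosion barcodes, and doublets called with Scrublet (scanpy 1.11.5) were removed, 1853 control and 597 explosion cells.

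Both libraries were clustered together on 2000 variable genes without the members, the other listed cilium genes, and mitochondrial, ribosomal, hemoglobin and immunoglobulin genes (30 components, 15 neighbours, Leiden at resolution 1, python-igraph 0.11.9). Each cluster was called "like" the type with the highest share of its markers detected, out of 151 markers found in the files. It stayed unnamed with under 3 detected, with more markers of another type among its 10 leading genes, or where it was shallow and had none of its own there. Clusters led by Calca or Il1rl1 were also left unnamed, a choice made after the data were seen. Of 29 clusters 5 stayed unnamed, and 19 drew over 80% of their cells from 1 library. UMIs were summed per class and library, and ratios have exact conditional Poisson intervals and shares exact Clopper-Pearson intervals at the 95% level. Medians of log2 ratios have 0.5 counts added, and for a member at 0 the level of 3 counts is given as its upper limit. The interval code was tested on simulated data.

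Members with values were the 15 with the highest mean CPM, the highest and lowest ratio of each structural group, and the 10 with at least 50 UMIs and the lowest share in ciliated-like cells. Dnah1, Dnai2, Tekt1, Tekt4, Cfap161, Cfap126, Cfap53, Cfap52, Cfap57, Rsph1 and Rsph4a were added after their values were seen. The members, lists and rules were chosen with earlier results of these data known. Alternatives changed the choice of cells, depth, scaling and filter on low values. A comparison with protein length was planned and is not given, since no protein sequences were used here. Promoters were matched by symbol or synonym to RefSeq for 54 of 64 members.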

Additional observations from a re-analysis of the deposited data

How the results depend on the processing

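No paired analysis was possible because each group has 1 library, and with 1 library no replicate could be left out. Depth limits the explosion ratios, since 1 UMI in its ciliated-like cells is worth 3.35 CPM. Of the main results under other settings, 71 values stayed within the counting interval (counts within 1.5 times) and 43 moved. The settings differed in this. With at most 20% Scgb1a1 9 moved and 1 stayed, and with the marker choice 8 moved and 2 stayed. Thinning to 500 UMIs, scaling without Scgb1a1, ribosomal, mitochondrial and Rn45s genes, and scaling to the median gene each moved 5 and left 1. Setting members at 0 to 3 counts left all 6 values, since no member read was at 0 in the explosion library. Choosing ciliated-like cells by 3 UMIs of 2 markers instead of by cluster took 1550 control and 189 explosion cells (8.06% and 1.60%, with 73.9% and 44.3% of member UMIs). Of these, 987 control and 182 explosion cells lay in the ciliated-like cluster. The marker choice gave medians of 1.90 over members, 2.53 for heavy chains and 0.36 for the lumen, with 0 members lower. With at most 20% Scgb1a1 the cells were 3.32% and 1.70%, with 35.2% and 44.3% of member UMIs, and medians of 0.35, 1.28 and -0.998 with 14 members higher and 8 lower. Thinning to 500 UMIs gave 0.48 and 1.00 for members and heavy chains, a gap of 1.56, and 14 and 7 members, and thinning to 1000 UMIs a control median of 13 members per cell. Scaling without Scgb1a1, ribosomal, mitochondrial and Rn45s genes gave 0.66, 1.45 and -0.88 with 15 and 8 members, and scaling to the median gene 0.12, 0.91 and -1.42 with 7 and 15 members. A mean of at least 100 CPM left 1 member lower. Shares of member UMIs were 72.2% and 59.9% with members kept in clustering, 71.5% and 62.6% (3.67% of explosion cells) with at least 500 UMIs per cell, and 71.4% and 56.9% with mitochondrial UMIs limited to 10%. Doublets left in gave control values of 5.73% of cells and 71.1% of member UMIs. Of 55 members read, 10 with a log2 ratio above 0 lay below the median gene, 6 of them with an interval above a ratio of 1 (Cfap100 at -0.17 and Rsph4a at -0.33 beside those next named). Among members named by the rule with an interval clear of 1, the sign turned for Cfap251 (-0.16), Cfap300 (-0.23), Cfap43 (-0.088) and Cfap70 (-0.17) relative to the median gene. It turned for Cfap70 also with at most 20% Scgb1a1 (-0.038) and thinned to 500 UMIs (-0.19), and for Cfap299 (0.072) by the marker choice. Dnai1, named by the rule with an interval that holds 1, turned as well. It lay at -0.88 relative to the median gene and at a ratio of 0.680 with at most 20% Scgb1a1. The cause was not tested.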

Other observations

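Other genes of the motile cilium were read in the same ciliated-like cells from 7 lists, of which 123 genes were found and 97 had a mean of at least 30 CPM. Of these, 38 were at least 2-fold higher in the explosion library, where 49.3% of all genes were, and 4 lower, where 9.13% were, with a median log2 ratio of 0.60 against 0.98 for all genes. With at most 20% Scgb1a1 the median was 0.04 over 103 genes, with 11 higher (27.9% of all genes) and 11 lower (15.6%). In the central apparatus, Hydin, a giant protein of the central pair, stood at 357 CPM in control and 1087 CPM in the explosion library, 3.05-fold higher (2.71 to 3.41). Ropn1l, a spoke protein listed there, stood at 261 and 60.4 CPM, 4.32-fold lower (2.73 to 7.30). Stk36 had the highest ratio of that list, at 4.58-fold (2.49 to 7.84) on 15 explosion UMIs, and Spef1 was at 1.17 (0.664 to 1.92).

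Among regulators of ciliogenesis 4 of 5 genes read were at least 2-fold higher (49.3% of all genes). Rfx3, an X-box binding factor, stood at 98.8 and 490 CPM, 4.96-fold higher (4.14 to 5.89), and Tp73 was at 3.09-fold (2.24 to 4.16). Deup1, which builds the deuterosomes that make basal bodies, stood at 77.3 and 53.7 CPM, a ratio of 0.694 (0.395 to 1.13). A further list joined the nexin-dynein regulatory complex, the brake between doublets, with Ccdc39 and Ccdc40 of the axoneme's ruler. Of its 11 genes 3 were at least 2-fold higher (49.3% of all genes) and none lower (9.13%). Tcte1 was at 4.31-fold (3.12 to 5.84) and Gas8 at 133 and 131 CPM. Of 20 genes on the list of dynein assembly factors 5 were at least 2-fold higher (49.3% of all genes), led by Spag1 at 3.09-fold (2.40 to 3.93). That list also holds Odad1, Odad2 and Odad4, which are docking genes of the outer arm. Beside Spag1, the genes past 2-fold were Wdr92 at 2.36-fold (1.42 to 3.70) and these Odad genes, at 2.15-fold to 2.86-fold. Ccdc103 was 1.94-fold lower (1.05 to 4.06). Intraflagellar transport genes had 12 of 27 at least 2-fold higher, near the 49.3% of all genes, and 1 lower (9.13% of all genes). Ttc26 was at 3.53-fold (2.59 to 4.70) and Ift27 at 222 and 97.3 CPM, 2.28-fold lower (1.59 to 3.42).

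Among tubulins and their modifiers, Ttll10 was 5.49-fold higher (3.39 to 8.54) on 23 explosion UMIs, while Tubb4b, the main beta tubulin of cilia, stood at 1508 and 1080 CPM, 1.40-fold lower (1.25 to 1.56). Spaca9 and Dynll1, on the list of doublet lumen and other axoneme proteins, were 2.74-fold (1.89 to 4.13) and 2.50-fold lower (2.13 to 2.95), and Ak8 3.47-fold higher (2.29 to 5.09). The 11 markers that named the cells were themselves uneven, from Pifo, 3.81-fold lower (2.22 to 7.17), to Cdhr3, 3.64-fold higher (2.72 to 4.80), with a median log2 ratio of -0.11.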
